A study of Mus musculus with 85 samples.

Results

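Kupffer cells are the macrophages that live in the sinusoids of the liver, where they take up particles, old red blood cells and bacterial products that arrive with blood from the gut. The LPS response of Kupffer cells from BALB/cJ mice was examined across all genes of the deposited table. It was measured in 4 of the 85 RNA-seq libraries of the series, which were chosen by their labels alone. The LPS group was 2 libraries of Kupffer cells from BALB/cJ mice that had received an intraperitoneal injection of 0.1 mg/kg Escherichia coli lipopolysaccharide (LPS) 2 h earlier. It was set against 2 libraries of Kupffer cells from BALB/cJ mice that had received no injection, called controls here. The mice were inbred males of 8 to 12 weeks of age. The study's LPS protocol fasted injected and uninjected mice overnight. The labels do not say whether these control libraries came from that experiment. If the controls were not fasted, fasting and LPS cannot be told apart. The transcription inhibitor flavopiridol was present during liver perfusion and digestion in both groups, and Kupffer cells were sorted by surface labels that included CD45 and F4/80. The controls had no sham injection, so injection and LPS cannot be told apart.

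LPS is a component of the outer membrane of Gram-negative bacteria. LPS-binding protein and CD14 hand it to the receptor TLR4 and its partner MD-2. TLR4 then signals through MyD88 and TIRAP from the cell surface, which activates NF-kB and MAP kinases, and through TRAM and TRIF from endosomes, which activates IRF3 and induces type I interferon. NF-kB is held in the cytoplasm by inhibitors of the IkB family, and several of its early target genes encode these inhibitors and other brakes. In the liver, Kupffer cells clear LPS from portal blood, recycle iron and are an early source of cytokines.

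The LPS libraries held 17.47 and 5.25 M (mega) counts and the control libraries 13.44 and 10.77 M. LPS replicate 2 was thus the shallowest of the 4. Titles name the strain as BALBcJ for the LPS libraries and as BALB for the controls, and no sequencing batch is given for either, so a batch between the groups and the treatment cannot be told apart. The sorted cells carried the defining transcripts of Kupffer cells in every library. Clec4f, a galactose-binding lectin restricted to Kupffer cells in mice, had 5188 and 4881 TPM (read counts scaled to transcript length and to the depth of the library) in LPS libraries, against 7270 and 7568 TPM in controls. C1qa, a subunit of complement C1q, had 4324 and 3905 TPM with LPS, against 5778 and 5921 TPM in controls.

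Transcripts of other liver and blood cells were present at low levels. The summed TPM of markers of neutrophils, platelets, monocytes, dendritic cells and, without Trf (transferrin), hepatocytes was higher in the LPS libraries. In bulk libraries, fewer cells of a type and less RNA per cell cannot be told apart. The 33 hepatocyte markers of the table summed to 1981 and 2425 TPM with LPS, below the 2571 and 2510 TPM of the controls. They include Trf, which Kupffer cells themselves held at 1308 and 1268 TPM with LPS and 2334 and 2015 TPM in controls. Without it, the other 32 markers summed to 673 and 1158 TPM in LPS libraries, against 238 and 495 TPM in controls. Of 29 hepatocyte markers that are not acute phase genes, the median level was 0.461% and 0.743% of that in BALB/cJ hepatocytes with LPS and 0.140% and 0.309% in controls. The LPS libraries lay above both controls, and LPS replicate 1 stood nearer to control replicate 2 than to LPS replicate 2. The 21 neutrophil markers summed to 217 TPM in each LPS library, against 94.8 and 88.8 TPM in controls, most of it Csf3r, the receptor for granulocyte colony-stimulating factor. Neutrophil-defining Ly6g was at 0 in all 4 libraries, as were the granule genes Mpo, Elane, Camp and Ltf, and 8 and 10 of the 21 markers were at 0 in LPS libraries, against 14 in each control. S100a9, which neutrophils express abundantly, had 13.6 and 14 TPM with LPS and 0 in both controls. The 14 erythroid and platelet markers summed to 410 and 539 TPM with LPS, against 206 and 136 TPM in controls, nearly all from Pf4 (platelet factor 4), which Kupffer cells can also express. Monocyte markers summed to 679 and 722 TPM with LPS and 599 and 496 TPM in controls. Of these, 3 of the 6 tested were called higher, with a median log2 fold change of 1.57. With hepatocyte and neutrophil genes left out, the median was 0.49 over 5 genes. The list holds Plac8 and the acute phase gene Hp, and it summed to 3126.5 and 3955.2 TPM in BALB/cJ hepatocytes. The inflammatory monocyte genes Ccr2 and Ly6c2 were at most 3.7 and 0.639 TPM in any library. Marker sums for dendritic cells were 461 and 374 TPM with LPS, against 230 and 256 TPM in controls. In BALB/cJ hepatocytes they were 160 and 165 TPM, where 1 of the 14 markers exceeded 8 TPM. The cell type behind the monocyte and dendritic cell sums was not tested. Those for endothelial cells were 420 and 505 TPM with LPS and 546 and 563 TPM in controls, and those for stellate cells and lymphocytes were also lower in TPM with LPS, while cholangiocyte markers summed to under 5 TPM in every library. By the test with TMM scaling, 1 of 7 tested endothelial markers was called higher and none lower (median log2 fold change 0.35), 2 of 4 stellate cell markers higher and 1 lower (0.65), and of 2 lymphocyte markers 1 was called lower.

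**Figure D1:**
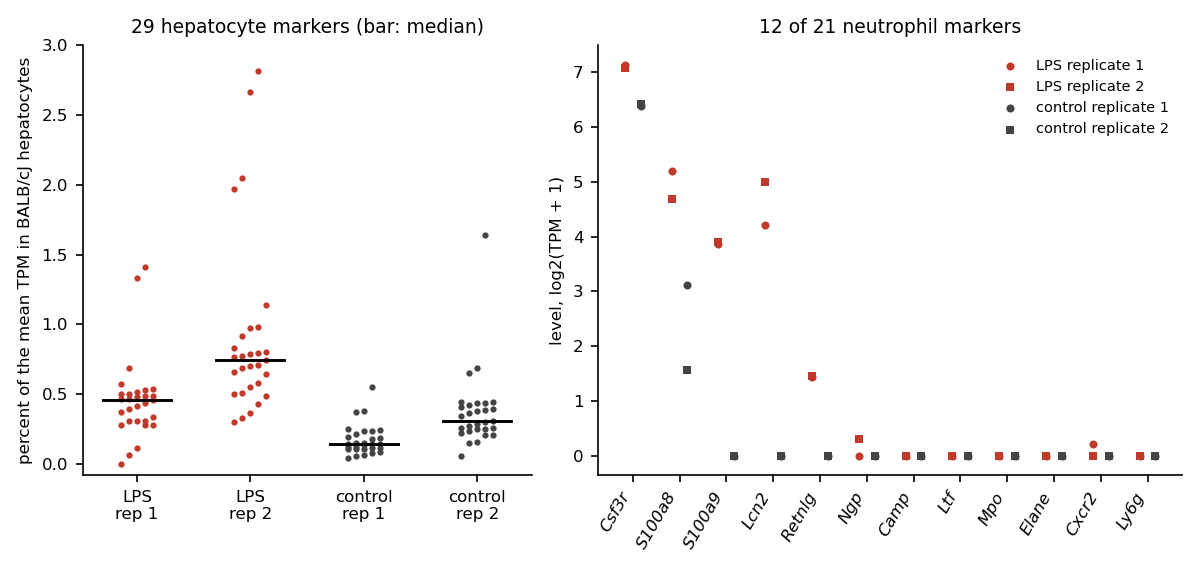
Left, the level of 29 hepatocyte markers in each BALB/cJ Kupffer library as a percent of their mean TPM in BALB/cJ hepatocytes, with the median as a bar. Right, levels of 12 of the 21 neutrophil markers on a log2(TPM + 1) axis, LPS left of control. The medians were 0.461% and 0.743% with LPS and 0.140% and 0.309% in controls, and Ly6g was at 0 in all 4 libraries.

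Of 23608 genes, 7754 passed a filter that required a mean above 8 TPM in at least 1 of the 2 groups. A gene was called when edgeR's quasi-likelihood test gave a Benjamini-Hochberg adjusted p under 0.05 and the absolute log2 fold change was above 1. With LPS, 1237 genes were called higher (16.0%) and 1254 lower (16.2%), and 5263 were not called. The largest changes were upward. Over 8-fold (a log2 fold change above 3), 268 genes were higher and 90 lower, and beyond a log2 fold change of 5, 97 were higher and 6 lower. Fold changes are on the TMM scale, on which the median gene moved by -0.04. Scaled by library totals, the median gene moved by -0.50 and 783 genes were called higher against 2301 lower, and with upper quartile scaling by -0.26 with 968 against 1703. TPM values share the scale of the library totals, so a gene with a log2 fold change near 0, such as Clec4f at -0.11 ± 0.11 (SE), has fewer TPM with LPS. Directions of changes smaller than 0.5 on the log2 scale therefore rest on the scaling. The 2 LPS libraries were also compared by counts on the TMM scale, with a small constant added, and not by TPM. Of the genes called higher, 37 were over 2 times as high in LPS replicate 2 as in LPS replicate 1, and 3 the reverse. Of those called lower, the numbers were 91 and 16. All counts below are read against the 16.0% and 16.2% of genes that were called, and genes near 0 in one group entered the test through their level in the other.

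**Figure D2:**
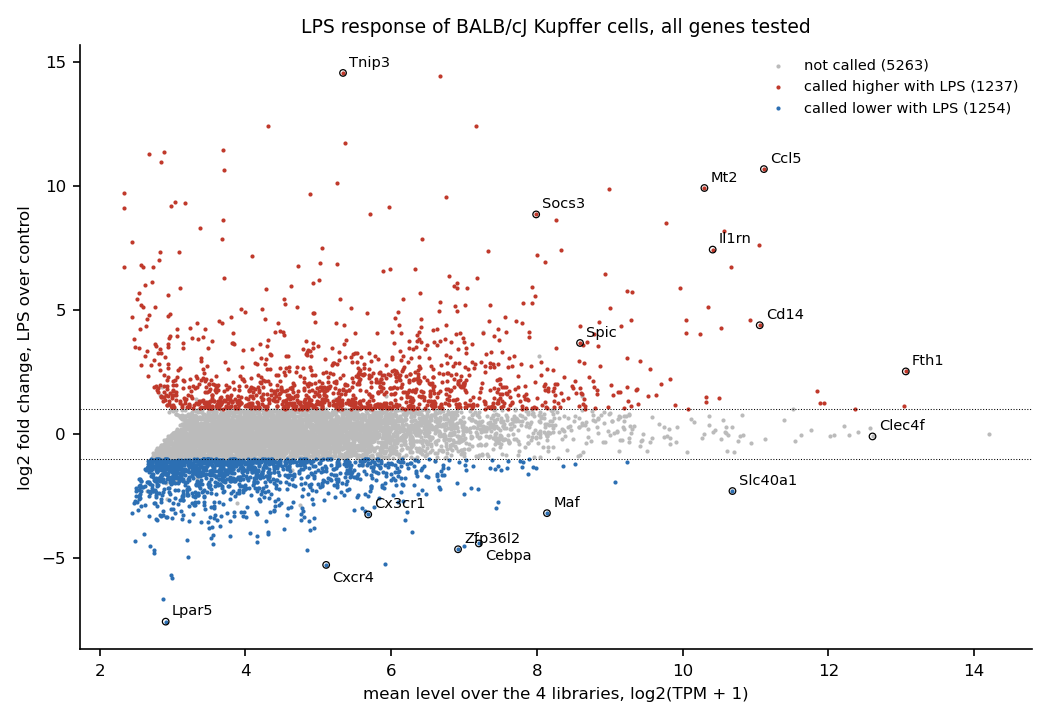
Each point is 1 of the 7754 genes tested. The x axis is the mean level over the 4 libraries as log2(TPM + 1) and the y axis the log2 fold change of LPS over control, with dotted lines at -1 and 1. Red points are the 1237 genes called higher and blue points the 1254 called lower, and the highest folds belong to genes that were near 0 in controls.

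The genes with the largest increases were close to silent in control Kupffer cells. Tnip3, an inhibitor that binds the NF-kB brake A20, had 77.6 and 80.2 TPM in LPS libraries and 0 in both controls. With a floor of 3 counts over the control group it was at least 2429-fold higher. Csf3, which encodes granulocyte colony-stimulating factor, had 118 and 286 TPM with LPS and 0 in both controls, at least 1762-fold higher. Sphk1 (sphingosine kinase 1), Saa3 (a serum amyloid A made by macrophages), Il33 (an alarmin of the IL-1 family), Serpinb2 (an inhibitor of plasminogen activation) and Lcn2 (lipocalin 2, which binds bacterial siderophores) were at 0 in both controls and at least 520-, 299-, 267-, 210- and 144-fold higher. Sele, the adhesion molecule E-selectin, had 4.87 and 16.8 TPM with LPS and 0 in controls, at least 183-fold higher. Endothelial markers were present in every library, and the cell type behind the reads of Sele was not tested. Cxcl3, a chemokine for neutrophils, had 50.4 and 521 TPM with LPS, against 0.102 and 0 TPM in controls from 1 count, a ratio of 4022 with a 95% counting interval from 721 to 158930. The 2 LPS libraries agreed closely for Tnip3 and differed several-fold for Cxcl3 and Sele. Slamf1, a receptor of the SLAM family, had 82.2 and 67.1 TPM with LPS and 0.115 and 0.047 TPM in controls, a log2 fold change of 10.13 ± 0.29. The calls of Csf3, Cxcl3 and Sele were lost when either control library was left out, with adjusted p of 0.0565 to 0.349, and Sele did not reach the level for testing without LPS replicate 2.

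The genes with the largest decreases included receptors and regulators of signalling and transcription. Lpar5, a receptor for lysophosphatidic acid, had 0.054 and 0 TPM in LPS libraries from 1 count, against 12.4 and 13.5 TPM in controls, a ratio of 219 with a counting interval from 39.1 to 8691. Cxcr4, the receptor for the chemokine CXCL12, had 0.831 and 2.15 TPM with LPS, against 55.0 and 75.9 TPM in controls (log2 fold change -5.29 ± 0.41, adjusted p = 0.000188). Engase, a cytosolic enzyme that trims N-glycans, had 1.67 and 3.20 TPM with LPS, against 109 and 124 TPM in controls, a log2 fold change of -5.24 ± 0.33. No LPS library overlapped a control for these genes. Rims4, a protein of the presynaptic release site, had 0 and 0.315 TPM with LPS from 1 count, against 9.73 and 15.2 TPM in controls, a ratio of 118 with a counting interval from 20.8 to 4674. Kctd12b, Bmyc, Gpr160, Efnb1 (ephrin B1) and Rab3a had log2 fold changes of -5.82, -4.96, -4.82, -4.69 and -4.52. Vgll4, a cofactor of TEAD transcription factors, had 0.787 and 3.04 TPM with LPS, against 55.1 and 51.6 TPM in controls. Tmem86a, a lysoplasmalogenase, had 2.88 and 14.8 TPM with LPS, against 239 and 251 TPM in controls. In both genes LPS replicate 1 was the lower of the LPS libraries. Their log2 fold changes of -4.67 ± 0.56 and -4.53 ± 0.74 lost their calls without control replicate 1 or control replicate 2, at adjusted p of 0.0626 to 0.271.

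Genes of LPS recognition rose in part. Of 23 genes for the TLR4 receptor complex and its adaptors, 21 were tested, 12 rose and 1 fell, with a median log2 fold change of 1.19 against -0.04 over all genes tested. Under library totals 8 rose and 4 fell, with a median of 0.72. Tlr4 itself had 42.8 and 35.8 TPM with LPS, against 47.3 and 52.0 TPM in controls, and its log2 fold change of 0.11 ± 0.13 was not called and was below 0 under library totals and upper quartile scaling. Its co-receptor Cd14 had 3773 and 4217 TPM with LPS, against 298 and 228 TPM in controls (log2 fold change 4.38 ± 0.20, adjusted p = 2.33e-05). The LPS libraries exceeded both controls more than 10-fold in TPM. Ly96, which encodes MD-2, had 153 TPM in each LPS library, against 61.5 and 59.0 TPM in controls, a log2 fold change of 1.80 ± 0.14. Myd88, the adaptor shared by most Toll-like receptors, had 192 and 168 TPM with LPS, against 66.7 and 61.5 TPM in controls, a log2 fold change of 1.94 ± 0.14. Irak3, an inhibitory member of the kinase family that MyD88 recruits, rose to 24.4 and 36.5 TPM, against 7.30 and 6.32 TPM in controls. Ticam2, which encodes the endosomal adaptor TRAM, was the member that fell, at 6.93 and 6.46 TPM with LPS, against 18.7 and 21.5 TPM in controls (log2 fold change -1.13 ± 0.17), and without LPS replicate 2 there were 2 such members. Of 19 receptors for other microbial products, 17 were tested, 7 rose and none fell by this test, while 4 fell under library totals and 1 fell without LPS replicate 2 or without control replicate 1. Clec4e (Mincle), a lectin for mycobacterial glycolipid, had 95.8 and 109 TPM with LPS, against 0.451 and 0.101 TPM in controls, a log2 fold change of 8.87 ± 0.38. Tlr2, the receptor for bacterial lipoproteins, had 301 and 342 TPM with LPS, against 44.6 and 45.4 TPM in controls, and Nod2, a cytosolic sensor of peptidoglycan, had 43.1 and 36.5 TPM, against 5.67 and 6.75 TPM. Their log2 fold changes were 3.29 ± 0.15 and 3.13 ± 0.16.

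The genes of NF-kB rose together with those of its inhibitors. Of 24 genes for its subunits and inhibitors, 23 were tested, 18 rose and none fell, with a median log2 fold change of 2.84. Nfkb2, which encodes the p100 subunit, had 346 and 306 TPM with LPS, against 24.5 and 23.1 TPM in controls (log2 fold change 4.22 ± 0.14, adjusted p = 1.29e-05). Relb, its dimer partner, and Nfkb1, which encodes p105 and p50, had log2 fold changes of 3.71 ± 0.14 and 2.84 ± 0.13. Rela, the transactivating subunit of the classical dimer, changed least of these 4, with 159 and 140 TPM with LPS, against 70.2 and 71.1 TPM in controls (1.53 ± 0.13). Among the inhibitors, Nfkbia, which encodes IkB-alpha, had 790 and 851 TPM with LPS, against 85.7 and 105 TPM in controls, a log2 fold change of 3.56 ± 0.16. Tnfaip3, which encodes the ubiquitin-editing enzyme A20, had 567 and 701 TPM with LPS, against 4.57 and 5.70 TPM in controls (log2 fold change 7.41 ± 0.23, adjusted p = 1.17e-05). The control libraries of these genes lay within a narrow range far below both LPS libraries. Ikbke, a kinase that activates IRF3 and NF-kB, rose by a log2 fold change of 5.20 ± 0.23. Cyld, a deubiquitinase that limits NF-kB, had 6.68 and 7.42 TPM with LPS and 10.6 and 10.7 TPM in controls and was not called (adjusted p = 0.411).

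The promoters of 2 of these inhibitor genes are shown because both rose strongly and both carry letters of the kB site that NF-kB subunits bind. The sequences are those of RefSeq on GRCm38.p6 (mm10), from 250 bases before to 50 bases after the start of transcription, read in the direction of the gene. They are the C57BL/6J reference, from which BALB/cJ may differ. Capitals mark matches on either strand to GGGNNNTTCC (kB) or TGANTCA (AP-1). Nfkbia lies on chromosome 12 (55492598 to 55492897, minus strand) and Tnfaip3 on chromosome 10 (19015361 to 19015660, minus strand, the first of 2 starts listed).
Nfkbia: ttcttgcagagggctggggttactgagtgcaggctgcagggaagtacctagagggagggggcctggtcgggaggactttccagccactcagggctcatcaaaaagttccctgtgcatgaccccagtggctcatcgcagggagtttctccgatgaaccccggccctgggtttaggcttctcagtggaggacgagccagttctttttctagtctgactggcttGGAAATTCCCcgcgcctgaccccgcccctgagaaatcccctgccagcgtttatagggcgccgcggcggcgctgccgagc
Tnfaip3: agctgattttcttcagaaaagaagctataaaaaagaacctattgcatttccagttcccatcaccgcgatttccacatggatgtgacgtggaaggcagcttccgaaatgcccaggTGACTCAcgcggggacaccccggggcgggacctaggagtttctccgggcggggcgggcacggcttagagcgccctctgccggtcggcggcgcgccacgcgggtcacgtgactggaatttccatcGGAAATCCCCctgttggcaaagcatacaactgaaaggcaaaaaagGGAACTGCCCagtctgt
The kB match of Nfkbia begins 29 bases before the start, and those of Tnfaip3 begin 12 bases before and 33 bases after it, with an AP-1 match 136 bases before. Of the 18 NF-kB genes that rose, 14 have a promoter in the table used and 7 of these (50.0%) hold a kB match. By gene the share was 6.3% over all genes with a promoter and 7.7% over genes tested. Some genes have several starts. By promoter a kB match was in 13 of the 20 (65%), against 5.6% of all 32851 promoters of this length. Over all genes called higher it was 8.3% of promoters, over those called lower 4.6% and over those not called 6.6%. These are descriptions of letters in a window and were not tested.

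Among genes that passed the filter, cytokines and CC chemokines had the highest medians of the lists of gene function. Of 34 cytokine genes, 19 passed the filter, 16 rose and 1 fell, with a median log2 fold change of 5.84. With no filter the median was 3.96 over 32 cytokine genes. Tnf, which encodes tumour necrosis factor and is among the genes the study names for LPS, had 124 and 188 TPM with LPS, against 2.44 and 1.77 TPM in controls (log2 fold change 6.64 ± 0.33, adjusted p = 3.98e-05). Il1rn, the secreted antagonist of the IL-1 receptor, had 2401 and 2998 TPM, against 23.3 and 19.5 TPM in controls (7.43 ± 0.23). Il27, a subunit of the cytokine IL-27, had 490 and 459 TPM, against 8.83 and 12.5 TPM in controls, and its partner Ebi3 had 394 and 272 TPM, against 71.4 and 64.2 TPM. Il15, a growth factor for NK and memory T cells, had 232 and 228 TPM with LPS, against 20.6 and 22.4 TPM in controls. Both LPS libraries lay far above both controls for each of these members, with a gap between replicates that was small beside that between groups.

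A second set of cytokines rose with a wide gap between the 2 LPS libraries. Il6 had 26.7 and 122 TPM with LPS, against 3.45 and 1.01 TPM in controls, and Il10, an inhibitory cytokine, had 12.7 and 59.6 TPM, against 1.11 and 0.489 TPM. Il12b, the shared subunit of IL-12 and IL-23, had 97.1 and 331 TPM with LPS, against 0.495 and 0.254 TPM in controls. Il1a and Il1b, the 2 IL-1 agonists, had 1102 and 2787 TPM and 1641 and 3881 TPM with LPS, against 48.3 and 43.4 TPM and 215 and 181 TPM in controls. In all 5 genes LPS replicate 2 was the higher library, and both LPS libraries exceeded both controls. On the log2 scale the changes were 5.43 ± 0.99, 5.84 ± 1.02, 9.55 ± 0.93, 5.87 ± 0.55 and 4.27 ± 0.48 in that order, at adjusted p of at most 0.00637. These calls were lost without control replicate 1 or control replicate 2, at adjusted p of 0.177 to 0.326 with log2 fold changes of 4.14 to 10.15, and the list then had 10 genes called higher in place of 16. Il16, a chemoattractant for CD4+ cells, was the member that fell, to 2.28 and 2.62 TPM with LPS, against 15.3 and 18 TPM in controls. Tgfb1 had 179 and 189 TPM with LPS and 361 and 298 TPM in controls and was not called (log2 fold change -0.38 ± 0.15). Ifnb1, the interferon beta gene, had 0.516 and 4.07 TPM with LPS and 0 in both controls, under the limit for testing.

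Chemokine genes rose over a wide range of levels. Of 17 CC chemokines, 10 were tested, 8 rose and none fell, with a median of 5.84. With no filter, 5 of 17 CC chemokines were called higher and the median was 3.88. Of 15 CXC chemokines, 10 were tested, 7 rose and 1 fell, with a median of 4.21. The member that fell was Cxcl14, with 26.8 and 15.1 TPM in LPS libraries, against 76.9 and 45.1 TPM in controls, and at a log2 fold change of -1.07 it was not called without LPS replicate 1, LPS replicate 2 or control replicate 1. Ccl5, which attracts T cells and monocytes, had 4534 and 4320 TPM in LPS libraries, against 4.70 and 2.41 TPM in controls (log2 fold change 10.68 ± 0.28, adjusted p = 1.17e-05). Ccl4 had 2834 and 5534 TPM with LPS, against 28.9 and 30.6 TPM in controls, and Cxcl10, an interferon-induced ligand of CXCR3, had 1212 and 2268 TPM, against 5.64 and 7.66 TPM. Their log2 fold changes were 7.60 ± 0.45 and 8.50 ± 0.47. The monocyte attractants Ccl2 and Ccl7 had 101 and 411 TPM and 192 and 1024 TPM with LPS, against 3.73 and 8.24 TPM and 1.3 and 3.04 TPM in controls, and Ccl3 had 492 and 1862 TPM, against 28.8 and 30.6 TPM. LPS replicate 2 was again the higher library in these 3 genes. Without control replicate 1 or control replicate 2 their adjusted p was 0.266 to 0.289, and 4 CC chemokines were then called higher in place of 8. The neutrophil attractants Cxcl1 and Cxcl2 varied in both groups. Cxcl1 had 84.4 and 480 TPM with LPS and 40.7 and 3.90 TPM in controls, and Cxcl2 had 163 and 739 TPM with LPS and 127 and 14.3 TPM in controls. Control replicate 1 was the higher control in both, and neither gene was called (log2 fold changes 4.09 ± 1.36 and 3.12 ± 1.27, adjusted p = 0.0551 and 0.0924). Cxcl13, a B cell attractant, had 537 and 904 TPM with LPS, against 36.1 and 62.6 TPM in controls (4.33 ± 0.41).

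Receptors for chemokines and chemoattractants moved in both directions. Of 18 listed, 9 were tested, 4 rose and 2 fell, while 4 fell under library totals and under upper quartile scaling. The formyl peptide receptors Fpr1 and Fpr2, which sense bacterial peptides, had 1213 and 1106 TPM and 1318 and 1059 TPM with LPS, against 220 and 198 TPM and 71.8 and 62.1 TPM in controls. These were log2 fold changes of 2.92 ± 0.13 and 4.60 ± 0.17. C5ar1, the receptor for complement C5a, had 685 and 634 TPM with LPS, against 204 and 160 TPM in controls. Cx3cr1, the fractalkine receptor, fell to 8.53 and 5.55 TPM with LPS, against 98.8 and 88.8 TPM in controls (log2 fold change -3.26 ± 0.21, adjusted p = 7.35e-05), and Cxcr4 was the other member that fell.

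**Figure D3:**
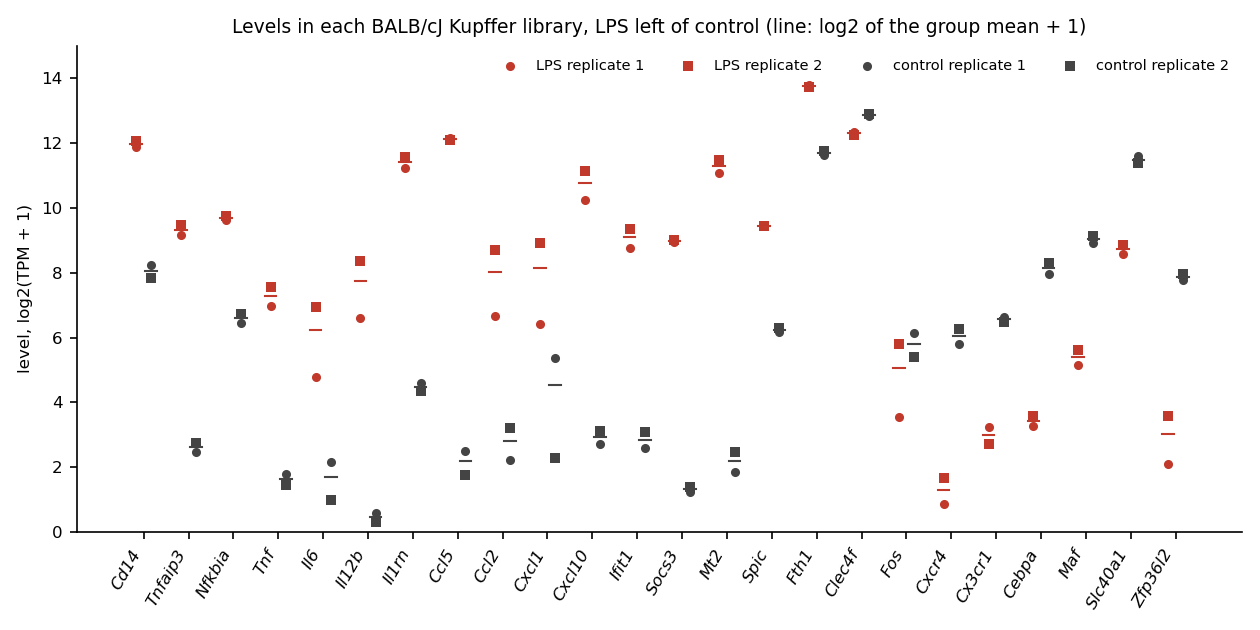
Levels of 24 genes in each BALB/cJ Kupffer library as log2(TPM + 1), LPS in red left of control in grey, circles for replicate 1 and squares for replicate 2, with a line at the group mean. Ccl5, Socs3 and Spic had close replicates, while Il6, Ccl2 and Cxcl1 were higher in LPS replicate 2, and Cebpa, Maf and Slc40a1 were lower in both LPS libraries than in either control.

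Of 29 immediate-early and AP-1 genes, 23 were tested, 12 rose and 5 fell, or 3 without LPS replicate 1 or control replicate 2. Atf3, a stress-induced repressor, had 154 and 160 TPM with LPS, against 7.84 and 14.2 TPM in controls (log2 fold change 4.30 ± 0.29). Maff, a small Maf protein, had 40.8 and 75.1 TPM with LPS, against 0.790 and 1.56 TPM in controls (6.09 ± 0.49). Fos, a subunit of AP-1, had 10.8 and 54.6 TPM with LPS and 69.2 and 41.3 TPM in controls, so that the groups overlapped, and was not called (adjusted p = 0.732), but without LPS replicate 2 its log2 fold change was -1.95 and it was called lower (adjusted p = 0.0316). Jund, the AP-1 subunit of resting cells, fell to 45.5 and 50.8 TPM, against 142 and 175 TPM in controls (-1.27 ± 0.16). Klf4, a Kruppel-like factor, fell to 0.834 and 1.46 TPM, against 16.1 and 22.8 TPM in controls (-3.78 ± 0.34).

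Brakes on signalling and on mRNA stability rose for the most part. Of 29 feedback inhibitors, 21 were tested, 14 rose and 4 fell, with a median log2 fold change of 2.62. With no filter the median was 1.88 over 28 genes, and 1 was called lower. Socs3, which blocks signalling from the IL-6 receptor family, had 494 and 515 TPM with LPS, against 1.36 and 1.63 TPM in controls (log2 fold change 8.85 ± 0.19, adjusted p = 8.66e-06). Dusp2, a phosphatase of MAP kinases, had 175 and 163 TPM with LPS, against 1.47 and 0.394 TPM in controls. Zfp36 (tristetraprolin) and Zc3h12a (regnase-1), which destabilise cytokine mRNAs, rose by log2 fold changes of 2.62 ± 0.16 and 4.10 ± 0.22. Zfp36l2, a relative of Zfp36, moved the other way and had 3.34 and 11.0 TPM with LPS, against 216 and 249 TPM in controls (-4.66 ± 0.59). Dusp6, a phosphatase of ERK, and the glucocorticoid-induced genes Tsc22d3 and Per1 also fell, with log2 fold changes of -3.86, -2.44 and -2.06. Neither LPS library overlapped a control for these 4 genes. All 4 calls were lost without control replicate 1 or control replicate 2 (adjusted p of 0.122 to 0.337), and those of Dusp6 and Tsc22d3 also without either LPS library (adjusted p of 0.109 to 0.245).

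Most genes induced by interferon rose. Of 50 interferon-stimulated genes, 49 were tested, 42 rose and none fell, with a median log2 fold change of 2.16 and a range from 0.32 to 6.92. Ifit1, which binds foreign RNA, had 437 and 655 TPM with LPS, against 5.00 and 7.47 TPM in controls (log2 fold change 6.92 ± 0.34, adjusted p = 5.19e-05). Rsad2 (viperin) had 964 and 1484 TPM with LPS, against 25.1 and 38.9 TPM in controls (5.72 ± 0.36), and Isg15, a ubiquitin-like modifier, had 451 and 487 TPM, against 9.31 and 24.3 TPM (5.28 ± 0.46). Mx1 and Oasl1 had log2 fold changes of 5.26 ± 0.47 and 5.08 ± 0.29. Control replicate 2 was the higher control for all 5 of these genes, and both LPS libraries exceeded it. Several members were already high in controls and stayed under the fold limit. Ifi44 had 146 and 175 TPM with LPS and 118 and 144 TPM in controls (0.75 ± 0.17, adjusted p = 0.00881), and Irf7, which amplifies interferon production, had 644 and 567 TPM with LPS and 516 and 498 TPM in controls (0.71 ± 0.12). Oas2 and Oas3, which make the activator of RNase L, had 0.66 ± 0.15 and 0.55 ± 0.13.

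The promoters of 3 of the most strongly raised members and of the chemokine gene Cxcl10 are shown because each holds letters of the interferon-stimulated response element (ISRE), which IRF and STAT complexes bind. Capitals mark matches on either strand to GAAANNGAAA (ISRE), GGGNNNTTCC (kB) or TGANTCA (AP-1), with source, build and window as above.
Ifit1: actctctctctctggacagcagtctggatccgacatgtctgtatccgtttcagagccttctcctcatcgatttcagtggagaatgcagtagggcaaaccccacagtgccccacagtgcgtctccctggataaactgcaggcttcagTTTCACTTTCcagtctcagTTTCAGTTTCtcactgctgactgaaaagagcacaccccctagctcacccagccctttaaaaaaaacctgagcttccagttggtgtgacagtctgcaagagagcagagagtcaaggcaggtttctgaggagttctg
Isg15: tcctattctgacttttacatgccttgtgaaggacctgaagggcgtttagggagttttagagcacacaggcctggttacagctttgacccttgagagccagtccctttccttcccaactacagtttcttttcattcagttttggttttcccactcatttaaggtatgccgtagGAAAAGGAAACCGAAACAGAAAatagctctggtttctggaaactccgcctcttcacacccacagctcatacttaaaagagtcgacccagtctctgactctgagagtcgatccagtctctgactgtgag
Rsad2: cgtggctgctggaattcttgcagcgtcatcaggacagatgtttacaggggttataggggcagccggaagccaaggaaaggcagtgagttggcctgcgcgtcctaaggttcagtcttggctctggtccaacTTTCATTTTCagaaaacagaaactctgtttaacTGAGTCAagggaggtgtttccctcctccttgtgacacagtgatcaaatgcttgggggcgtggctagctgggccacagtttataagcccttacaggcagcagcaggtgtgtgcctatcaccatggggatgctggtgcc
Cxcl10: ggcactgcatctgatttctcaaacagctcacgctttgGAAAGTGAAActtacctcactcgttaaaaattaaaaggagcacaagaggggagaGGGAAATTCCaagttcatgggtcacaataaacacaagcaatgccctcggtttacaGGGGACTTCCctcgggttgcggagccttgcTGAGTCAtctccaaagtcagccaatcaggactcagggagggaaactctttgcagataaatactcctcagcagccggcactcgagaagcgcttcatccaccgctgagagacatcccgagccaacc
They lie on chromosome 19 (34640639 to 34640938, plus strand), chromosome 4 (156200769 to 156201068, minus strand), chromosome 12 (26456403 to 26456702, minus strand) and chromosome 5 (92348840 to 92349139, minus strand). Ifit1 holds ISRE matches that begin 104 and 85 bases before the start, and Isg15 holds 3 overlapping matches from 78, 72 and 66 bases before it. Rsad2 holds an ISRE match 120 bases before the start and an AP-1 match 87 bases before it. Cxcl10, a chemokine that is also induced by NF-kB, holds kB matches 159 and 104 bases before the start, an ISRE match 213 bases before it and an AP-1 match 74 bases before it. An ISRE match was found in 18 of the 33 interferon-stimulated genes called higher that have a promoter in the table (54.5%). By gene the share was 4.0% over all genes with a promoter and 4.2% over genes tested. By promoter the match was found in 51.3% of the 39 promoters of these genes, against 3.4% of all promoters. It was found in 6.4% of promoters over all genes called higher, 2.4% over those called lower and 3.1% over those not called.

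Interferon-inducible GTPases, which attack vacuoles of pathogens, followed. Of 18 genes, 15 were tested, 13 rose and 1 fell, with a median log2 fold change of 2.57. Gbp5 had 989 and 926 TPM with LPS, against 11.5 and 18.7 TPM in controls (6.44 ± 0.27), and Gbp2 and Gbp3 rose by 4.00 ± 0.19 and 3.64 ± 0.13. Gbp8 had 26.7 and 26.1 TPM with LPS, against 73.3 and 73.0 TPM in controls, and at -1.02 ± 0.13 its call was lost without LPS replicate 1 and under 4 other settings. Members of this family share long stretches of sequence, so reads may be split between them. The IRF and STAT factors changed less, with 4 of 13 tested members higher, none lower and a median of 0.40. Under library totals 2 were lower and the median was -0.08, and when 1 library was left out the median was 0.11 to 0.68, lowest without LPS replicate 2 and highest without control replicate 2. Stat5a had 67.6 and 42.6 TPM with LPS, against 6.68 and 6.24 TPM in controls (3.54 ± 0.23), and Stat2, a subunit of the complex that binds ISREs, had 156 and 160 TPM, against 50.8 and 79.8 TPM (1.73 ± 0.22). Irf8 had 56.8 and 44.7 TPM with LPS and 106 and 125 TPM in controls and did not reach the fold limit (-0.73 ± 0.16).

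Of 24 genes of cell survival and death, 22 were tested, 15 rose and 1 fell (2 without LPS replicate 2). Fas, a death receptor, had 45.7 and 50.6 TPM with LPS, against 1.33 and 2.5 TPM in controls (log2 fold change 5.13 ± 0.29). Birc3, an inhibitor of apoptosis, rose to 257 and 322 TPM, against 35.3 and 44.9 TPM in controls, and Gadd45b, a stress-response gene, to 274 and 191 TPM, against 6.37 and 4.13 TPM. Of 15 tested genes of the inflammasome and of pyroptosis, 5 rose and 2 fell, and the list median was -0.17. Without LPS replicate 1 and LPS replicate 2, 1 and 4 members fell and the median was 0.27 and -0.38, and under library totals 3 rose and 6 fell. Casp4, whose mouse product caspase-11 binds cytosolic LPS, had 289 and 318 TPM with LPS, against 18.8 and 16.3 TPM in controls (4.56 ± 0.17). Mefv (pyrin) had 119 and 130 TPM, against 6.48 and 6.98 TPM, and Nlrp3 had 127 and 167 TPM, against 42.6 and 39.1 TPM. P2rx7, an ATP-gated channel upstream of NLRP3, fell to 7.53 and 10.7 TPM, against 39.1 and 39.6 TPM in controls (-1.68 ± 0.20).

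Genes for interaction with T cells rose. Of 21 costimulatory and checkpoint genes, 18 were tested, 15 rose and 1 fell, with a median log2 fold change of 1.83. Cd40, which receives help from T cells, had 222 and 210 TPM with LPS, against 3.30 and 3.93 TPM in controls (log2 fold change 6.35 ± 0.17, adjusted p = 1.17e-05). Cd274 (PD-L1) had 329 and 382 TPM with LPS, against 19.7 and 17.7 TPM in controls (4.70 ± 0.17), and Icam1, an adhesion molecule for leukocytes, had 1103 and 1016 TPM, against 71.4 and 72.8 TPM (4.33 ± 0.13). Vsir (VISTA), a checkpoint of resting myeloid cells, fell to 45.6 and 29.6 TPM, against 256 and 213 TPM in controls (-2.19 ± 0.22). Among 15 genes of MHC class I presentation 5 rose and none fell, among them Tap1, a peptide transporter, and Nlrc5, the transactivator of class I genes, at 2.22 ± 0.22 and 1.98 ± 0.18, and under library totals 3 rose. Of 13 genes of MHC class II presentation, 9 were tested and 5 rose. H2-Aa had 1371 and 1124 TPM with LPS, against 410 and 428 TPM in controls (2.02 ± 0.13), and H2-Eb1 had 576 and 464 TPM, against 193 and 199 TPM (1.86 ± 0.14). Ciita, the master regulator of the class II genes, had 3.23 and 2.99 TPM with LPS and 5.89 and 7.22 TPM in controls and was under the limit for testing.

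Iron handling changed in both storage and export. Of 25 genes of heme and iron handling, 23 were tested, 10 rose and 1 fell. When genes over 2 times as high in hepatocytes or markers of hepatocytes and neutrophils were left out, 5 rose and 2 fell of the 18 still tested. Under library totals 5 fell, and 4 and 2 fell without LPS replicate 2 and control replicate 2. Fth1, the heavy chain of the iron store ferritin, had 13946 and 13631 TPM with LPS, against 3187 and 3410 TPM in controls (log2 fold change 2.52 ± 0.12, adjusted p = 2.56e-05). Slc40a1, which encodes the iron exporter ferroportin, fell to 382 and 461 TPM, against 3088 and 2639 TPM in controls (-2.31 ± 0.17, adjusted p = 0.000111). Slc11a2, an iron importer (DMT1), had 113 and 90.1 TPM with LPS, against 8.44 and 7.93 TPM in controls, and Steap4, a metal reductase, had 58.6 and 64.0 TPM, against 1.28 and 0.972 TPM. Hmox1, which degrades heme, had 3542 and 3415 TPM with LPS and 2298 and 2473 TPM in controls, just under the fold limit at 1.00 ± 0.11. Metallothioneins, which bind zinc and copper, rose far more than the median gene. Mt2 had 2171 and 2852 TPM with LPS, against 2.62 and 4.61 TPM in controls (9.92 ± 0.33), and Mt1 had 2128 and 2890 TPM, against 96.4 and 101 TPM (5.12 ± 0.22). Sod2, the mitochondrial superoxide dismutase, had 428 and 405 TPM, against 25.5 TPM in each control (4.48 ± 0.13). Of 25 genes of oxidative and metal stress, 23 were tested, 10 rose and 3 fell, and Sesn2, a stress-induced sestrin, fell furthest, to 0.539 and 1.08 TPM, against 21.5 and 20.0 TPM in controls (-4.44 ± 0.32).

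Genes of glucose use moved more than those of respiration. Of 27 genes of glycolysis and immunometabolism, 20 were tested, 9 rose and 1 fell, with a median of 0.87. Slc2a6, a hexose transporter, had 256 and 196 TPM with LPS, against 5.67 and 4.12 TPM in controls (log2 fold change 5.97 ± 0.23). Pfkfb3, which makes an activator of glycolysis, had 209 and 158 TPM, against 12.4 and 14.3 TPM (4.23 ± 0.18), and Hk2 (hexokinase 2) 129 and 155 TPM, against 25.5 and 20.4 TPM (3.08 ± 0.19). Acod1, the enzyme that makes itaconate, had 51.5 and 62.2 TPM with LPS, against 0.159 and 0 TPM in controls. Of 37 genes of oxidative phosphorylation, 1 rose and none fell, with a range from -0.47 to 1.13, and none and 2 rose without control replicate 1 and control replicate 2. Their median of 0.18 was -0.29 under library totals and -0.05 under upper quartile scaling. For lipid mediators, 4 of 14 tested genes rose and 3 fell, or 5 without LPS replicate 2 and 7 under library totals. Ptges, the prostaglandin E synthase, had 10.2 and 5.85 TPM with LPS, against 0.028 and 0 TPM in controls from 1 count, a ratio of 830 with a counting interval from 148 to 32854. Ptger4, a receptor for prostaglandin E2, rose by 4.46 ± 0.20. Hpgd, which inactivates prostaglandins and is a Kupffer cell gene, fell to 119 and 221 TPM, against 889 and 915 TPM in controls (-1.95 ± 0.32), and its adjusted p was 0.0608 and 0.0590 without control replicate 1 and control replicate 2. Of 16 tested LXR targets, 5 fell and 1 rose, or none without LPS replicate 2. Abcg1, a cholesterol exporter, fell to 11.1 and 15.3 TPM, against 117 and 125 TPM in controls (-2.75 ± 0.20), while Ch25h, which makes 25-hydroxycholesterol, had 5.22 and 11.0 TPM with LPS and 0 in both controls, at least 73.2-fold higher.

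The median gene that marks Kupffer cells moved little on the TMM scale, while several factors that specify the lineage fell. Of 38 identity genes, 36 were tested, 5 rose, 6 fell and the median log2 fold change was 0.01, which was -0.46 under library totals, where 3 rose. Vsig4, a complement receptor, and Timd4, a receptor for phosphatidylserine, had log2 fold changes of -0.22 ± 0.14 and 0.81 ± 0.14 and were not called. Marco, a scavenger receptor for bacteria, rose to 499 and 587 TPM, against 53.8 and 81.5 TPM in controls (log2 fold change 3.46 ± 0.24). Cd207 (langerin), Kcna2 and Gfra2 fell, with log2 fold changes of -1.43, -1.95 and -1.61. Adrb1, an adrenergic receptor, fell to 0.318 and 4.07 TPM, against 28.7 and 42.5 TPM in controls (-4.06 ± 0.95), and its adjusted p was 0.360 and 0.408 without control replicate 1 and control replicate 2. Of 31 lineage factors, 28 were tested, 8 rose and 9 fell, with a median of 0.09 that was -0.38 under library totals. Cebpa, a myeloid factor, fell to 8.66 and 10.9 TPM, against 249 and 316 TPM in controls (-4.42 ± 0.21, adjusted p = 2.75e-05). Maf (c-MAF) fell to 34.9 and 47.7 TPM, against 481 and 558 TPM, and Rxra, the partner of LXR and other nuclear receptors, to 24.6 and 32.6 TPM, against 329 and 301 TPM. Their log2 fold changes were -3.20 ± 0.21 and -3.01 ± 0.19. Nr1h3, which encodes LXR-alpha, had 116 and 138 TPM with LPS and 256 and 198 TPM in controls and was not called (-0.39 ± 0.18, adjusted p = 0.112). Spic, a factor of iron-recycling macrophages, rose to 701 and 687 TPM, against 71.7 and 78.2 TPM in controls (3.66 ± 0.13), and Tfec and Runx1 rose by 2.34 ± 0.15 and 2.31 ± 0.14. Spi1 (PU.1) had 645 and 519 TPM with LPS and 550 and 497 TPM in controls and did not reach the fold limit (0.60 ± 0.14).

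Components of the niche pathways that maintain Kupffer cells also moved. Of 27 genes of BMP, TGF-beta and Notch signalling, 18 were tested, 4 rose and 5 fell. The inhibitory Smads fell, with Smad6 at 4.67 and 3.51 TPM with LPS, against 27.6 and 21.1 TPM in controls, and Smad7 at 1.36 and 3.52 TPM, against 24.9 and 29.2 TPM. The log2 fold changes were -2.09 ± 0.23 and -3.17 ± 0.44. Hey1, a target of Notch and BMP signals, fell to 1.04 and 0.591 TPM, against 12.4 and 13.7 TPM in controls (-3.40 ± 0.29), while Notch1 and Notch2 rose by 2.65 ± 0.13 and 1.91 ± 0.15. Of 23 tested scavenger and efferocytosis receptors 3 rose and 6 fell, or 10 under library totals. Stab1, which clears modified lipoproteins, fell to 11.9 and 19.3 TPM, against 72.0 and 71.6 TPM in controls (-1.76 ± 0.25), and Trem2, a lipid receptor, to 18.1 and 15.3 TPM, against 51.7 and 63.1 TPM (-1.32 ± 0.18).

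**Figure D4:**
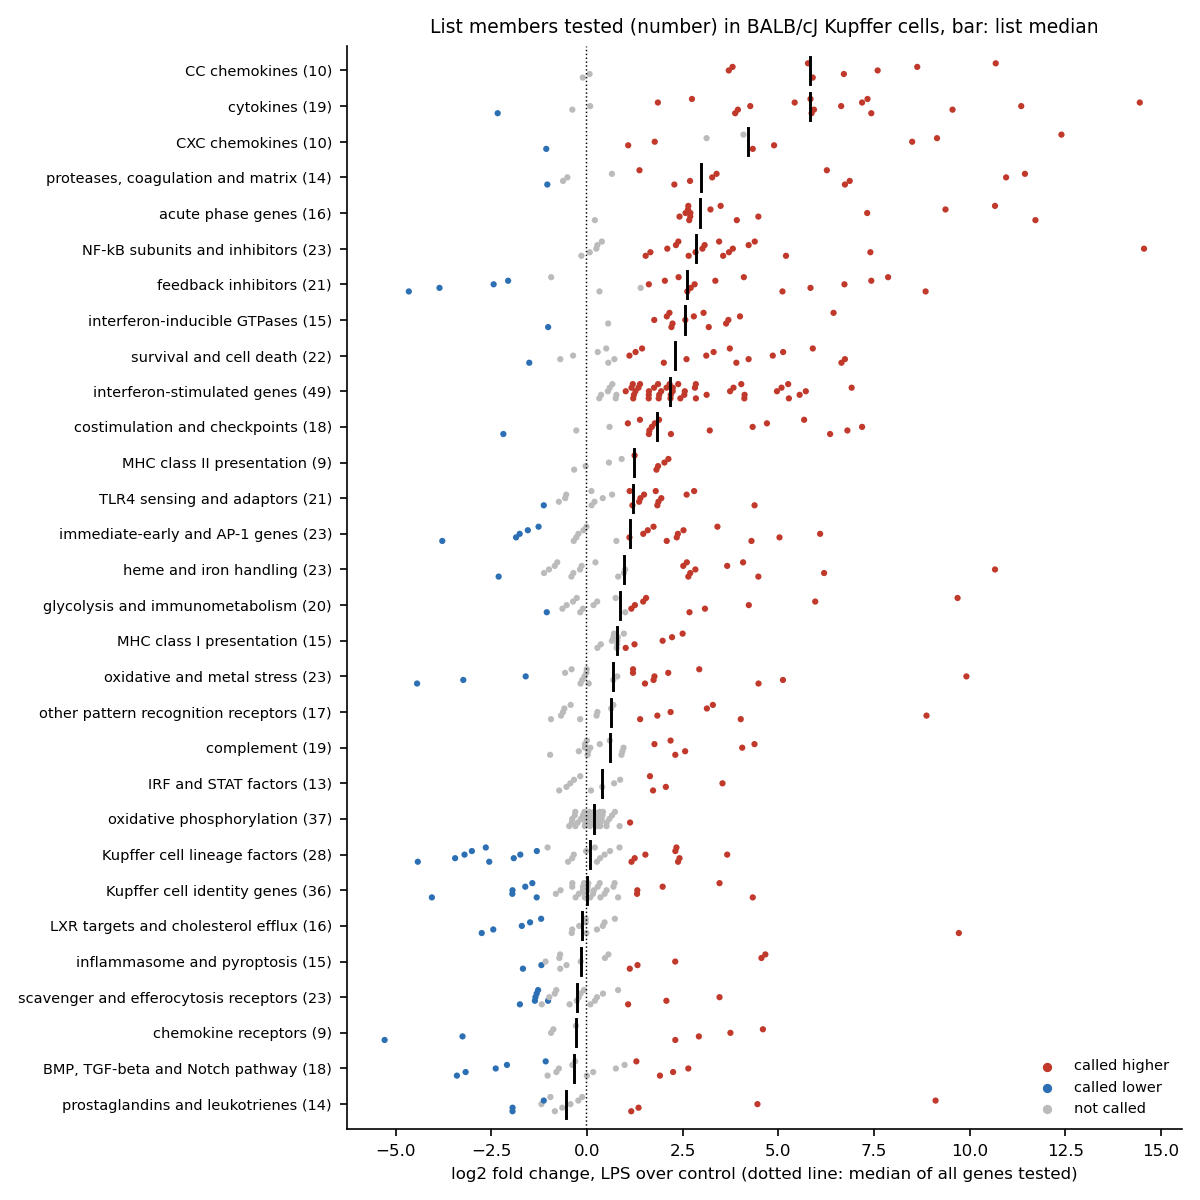
Each point is a list member tested, placed by its log2 fold change of LPS over control, red where called higher, blue where called lower and grey where not called. Black bars are list medians and the dotted line is the median of all genes tested (-0.04). Lists of CC chemokines and cytokines are at the top with medians of 5.84, and Kupffer cell identity genes lie near the dotted line.

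Proteases and regulators of coagulation and matrix rose in 10 of 14 tested cases, with 1 lower, of 28 listed. Their median log2 fold change was 2.98, and with no filter it was 1.97 over 28 genes. Without LPS replicate 1 and LPS replicate 2, none and 2 were lower. Mmp13, a collagenase, had 2858 and 3522 TPM with LPS, against 38.2 and 43.6 TPM in controls (log2 fold change 6.74 ± 0.20, adjusted p = 1.17e-05), and Mmp14, a membrane-bound metalloprotease, had 286 and 280 TPM, against 5.51 and 4.49 TPM (6.27 ± 0.18). Adamts4, a protease of proteoglycans, had 19 and 28.9 TPM with LPS, against 0 and 0.02 TPM in controls from 1 count, a ratio of 3326 with a counting interval from 596 to 131420. Replicates were close for Mmp13 and Mmp14. Of 19 tested complement genes, 6 rose and none fell, while under library totals 1 fell. When genes over 2 times as high in hepatocytes and the hepatocyte and neutrophil markers were left out, 3 of the 14 still tested rose. Cfb, factor B of the alternative pathway, had 317 and 243 TPM with LPS, against 26.1 and 19.8 TPM in controls (4.06 ± 0.21).

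Genes of the hepatic acute phase rose together with the hepatocyte markers. Of 20 acute phase genes, 16 were tested, 15 rose and none fell, with a median of 2.96, and of 22 hepatocyte markers tested 18 rose and none fell, with a median of 1.73. Of the markers, 6 rose without LPS replicate 2, 11 under library totals and 3 in 1 fit over all Kupffer libraries. Alb (albumin) had 187 and 340 TPM with LPS and 77.5 and 161 TPM in controls, where hepatocytes averaged 67884 TPM, and its log2 fold change of 1.61 ± 0.45 lost its call without LPS replicate 1, LPS replicate 2 or control replicate 1 (adjusted p of 0.110 to 0.275). Hp (haptoglobin) had 32.3 and 55.2 TPM with LPS, against 7.69 and 11.3 TPM in controls (2.65 ± 0.35), and Fgg, a fibrinogen chain, had 26.3 and 40.6 TPM, against 3.90 and 5.86 TPM (3.23 ± 0.32). LPS replicate 2 was the higher LPS library and control replicate 2 the higher control for these 3 genes. The 13 acute phase genes with over 100 TPM in hepatocytes stood at a median 0.934% and 1.69% of the hepatocyte level with LPS, against 0.196% and 0.306% in controls. The hepatocyte libraries came from uninjected mice, and hepatocytes raise these genes after LPS. The part of hepatocyte RNA in the rise of these genes was not tested. In 1 setting, genes over 2 times as high in hepatocytes as in both Kupffer groups were left out, with the listed hepatocyte and neutrophil markers. There, 2 of the 3 acute phase genes still tested were called higher. In all 7178 genes were tested, of which 1154 were called higher and 1186 lower. Of the 2331 main calls still tested, 2326 were kept. Each gene is fitted on its own counts, so leaving out others acts on these calls only through scaling, shared estimates of spread and p adjustment. This setting takes no hepatocyte or neutrophil RNA out of the genes that remain.

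Neutrophil-associated genes that rose were Csf3r, S100a8, S100a9 and Lcn2, which are the 4 of 21 markers that passed the filter. S100a8 had 35.6 and 24.8 TPM with LPS, against 7.71 and 1.97 TPM in controls (log2 fold change 3.06 ± 0.53). Csf3r had 139 and 134 TPM with LPS, against 83.0 and 84.5 TPM in controls, and its log2 fold change of 1.16 ± 0.13 was not called under library totals or upper quartile scaling. The list median of 6.12 was 4.47 with the genes at 0 set at their bound. Lcn2 is also induced in macrophages and hepatocytes. The part of neutrophil RNA in the response was not tested.

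The comparison with the same treatment and sort in C57BL/6J mice was set beside it. It had 2 LPS libraries of 7.78 and 7.40 M counts and 2 control libraries of 10.66 and 9.09 M counts, and 1430 of 7809 genes tested were called higher (18.3%) and 1541 lower (19.7%). Of the genes called higher in BALB/cJ, 1006 were called higher in C57BL/6J, which is 81.3% of the BALB/cJ calls and 70.3% of the C57BL/6J calls. Of those called lower, 973 were called lower in C57BL/6J (77.6% of BALB/cJ calls and 63.1% of C57BL/6J calls). Across the 7350 genes tested in both strains the log2 fold changes had a Pearson r of 0.94 and a Spearman rho of 0.92, a description over genes that share libraries within each strain. Whether the response differed was tested as the interaction of strain and treatment over the 8 libraries. Of 8213 genes, 3 responded more positively in BALB/cJ (0.0365%) and 6 more negatively (0.0731%), all at an adjusted p of 0.0404, and 615 and 543 did so at an unadjusted p under 0.05. DESeq2 called 93 and 107.

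The 9 genes were called by their difference in response, and their control levels were not tested between strains. Zfp703, a transcriptional repressor on mm10 chromosome 8, 26977336 to 26981462, had 27.6 and 23.2 TPM with LPS, against 75.2 and 101 TPM in controls in BALB/cJ, and 116 and 90.4 TPM with LPS, against 71.7 and 56.0 TPM in controls in C57BL/6J. It was the 1 gene called in opposite directions in the 2 strains (log2 fold changes -1.34 and 1.25, difference -2.60). Lbp, which encodes LPS-binding protein (chromosome 2, 158306493 to 158332852), had 36.9 and 24.5 TPM with LPS, against 6.4 and 5.67 TPM in controls in BALB/cJ, and 26.8 and 20.7 TPM with LPS and 26.3 and 26.1 TPM in controls in C57BL/6J (difference 2.37). The levels of Lbp overlapped between the strains after LPS and did not overlap without it. Mtus1, a microtubule-associated protein (chromosome 8, 40990912 to 41133983), had 13.1 and 17 TPM with LPS and 12.6 and 10.4 TPM in controls in BALB/cJ, and 9.13 and 8.75 TPM with LPS, against 63.4 and 46.9 TPM in controls in C57BL/6J (difference 2.88). Dock5, an activator of Rac, had a difference of 1.49. Ube2l6, which conjugates ISG15 to proteins (chromosome 2, 84798828 to 84810003), had 119 and 102 TPM with LPS, against 44.4 and 44.6 TPM in controls in BALB/cJ, and 144 and 151 TPM with LPS, against 21.8 and 22.3 TPM in controls in C57BL/6J (difference -1.55). Slc7a7, a transporter of cationic amino acids, Vat1, Mfhas1 and Mxra8 had differences of -1.72, -1.51, -1.94 and -2.34. The 9 calls were lost when BALB/cJ LPS replicate 2 or any control library was left out, and with a replicate block.

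**Figure D5:**
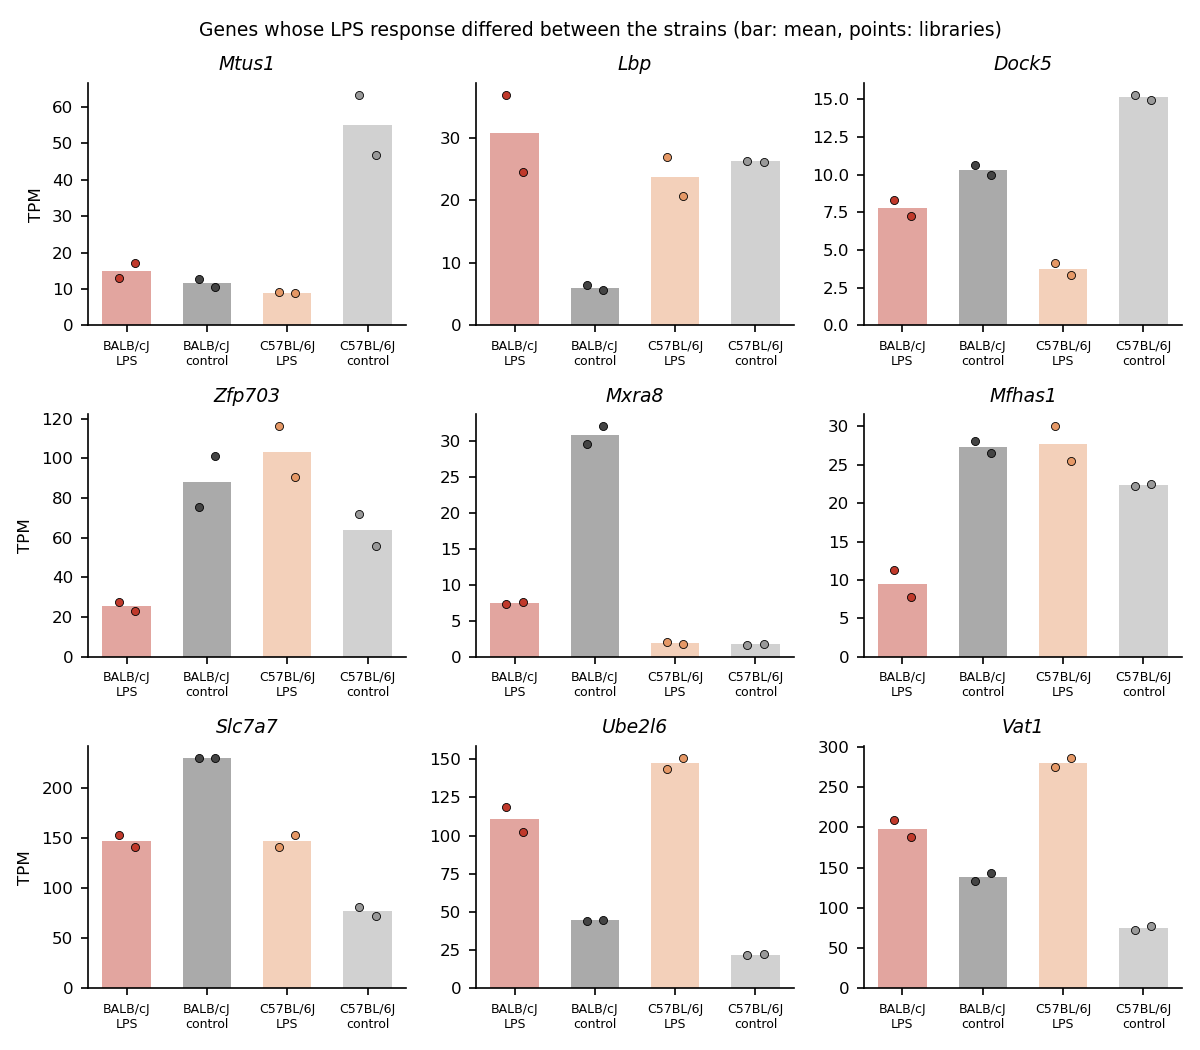
TPM of the 9 genes with a called difference in LPS response between BALB/cJ and C57BL/6J Kupffer cells. Bars are means of 2 libraries and points the libraries, LPS left of control within each strain. For Lbp the BALB/cJ controls were at 6.4 and 5.67 TPM, below the other 3 groups, and for Mtus1 the C57BL/6J controls were at 63.4 and 46.9 TPM, above the others.

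Some gene groups are given for both strains side by side. Interferon-stimulated genes had a median log2 fold change of 2.16 in BALB/cJ and 3.39 in C57BL/6J, where all 49 tested were called higher. The median difference was -1.47 over 50 genes, against 0.02 over all genes tested, and none of the 50 was called different. MHC class II genes had a median of 1.24 in BALB/cJ and 0.25 in C57BL/6J. H2-Aa had 2857 and 2241 TPM with LPS and 2127 and 3547 TPM in controls in C57BL/6J, so that its groups overlapped there, and the difference between strains was not called (1.61, adjusted p = 0.111). Med21, Plac8 and Slc7a2 are named by the study as strain-specific LPS-responsive genes, with equal, high and low basal levels. Their values here are thus no independent evidence. Med21, a subunit of Mediator, had 153 and 110 TPM with LPS, against 20.6 and 22.5 TPM in controls in BALB/cJ, and Plac8 had 106 and 128 TPM, against 16.7 and 8.11 TPM. Slc7a2, an arginine transporter, had 1.02 and 1.69 TPM with LPS, against 0.214 and 0.692 TPM in controls in BALB/cJ, and 77.1 and 109 TPM with LPS, against 5.39 and 4.31 TPM in controls in C57BL/6J. The interaction of the 3 genes was not called (adjusted p of 0.147, 0.0816 and 0.180). With Tnf they make 4 genes that the study names for LPS. In BALB/cJ 3 of the 3 tested were called higher, and in C57BL/6J 3 of the 4 tested. The C57BL/6J levels of Med21 and Plac8 are not reported here.

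BALB/cJ bone-marrow-derived macrophages had been treated in culture with 100 ng/ml Kdo2-lipid A (KLA), a pure TLR4 ligand, or with PBS. Both treatments lasted 2 h. Ligand, dose and setting differ, so values are given side by side and no difference was tested. Of 8208 genes tested there, 716 were called higher with KLA (8.72%) and 443 lower (5.40%). Tnf, Nfkbia and Socs3 had log2 fold changes of 6.64, 3.56 and 8.85 in Kupffer cells with LPS and of 7.87, 5.28 and 8.52 in cultured macrophages with KLA. Il1b and Il6 had 4.27 and 5.43 in Kupffer cells and 10.31 and 9.90 with KLA. Mt2 had 9.92 in Kupffer cells and 1.91 with KLA, and Fth1 had 2.52 in Kupffer cells and 0.03 with KLA. Of 49 interferon-stimulated genes tested in each, 42 were called higher in Kupffer cells, with a median of 2.16, and 13 with KLA, with a median of 0.53. Cebpa had -4.42 in Kupffer cells and -2.70 with KLA, and Maf -3.20 and -0.74. Spic and Clec4f did not pass the filter in cultured macrophages.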

How the data were processed

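Poly(A) RNA of sorted Kupffer cells was sequenced from libraries that mark strand; the study's methods do not state whether counting used strand, so a gene and an antisense partner may share reads. The authors aligned reads with STAR to the BALB/cJ genome, moved the positions to mm10 with MMARGE and counted exon reads per gene with HOMER. The deposited tables hold counts per gene and TPM for Kupffer cells and hepatocytes, and the authors' table of cultured macrophages holds expected counts, which were rounded here to whole numbers. Every per-sample column was mapped to a sample.

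Counts were tested with edgeR 4.0.16 (R 4.3.3) by the quasi-likelihood test with TMM scaling and Benjamini-Hochberg adjustment over all genes tested, after filterByExpr and a mean above 8 TPM in at least 1 group, without a replicate term. The study gives 2 mice per group as the replicates of the LPS experiment, while the labels do not name the mouse behind each library, and p-values measure the spread between these libraries. SE was the absolute log2 fold change over the square root of F. Folds against a group at 0 were computed against 3 counts over the group, and ratios with 1 to 3 counts have exact 95% intervals that cover counting error only. Alternatives were DESeq2 1.42.0, other scaling and filters, a replicate block, 1 fit over all Kupffer libraries, leaving out hepatocyte and neutrophil genes, and leaving out each library. The genes left out had a mean TPM in BALB/cJ hepatocytes over 2 times that of the higher Kupffer group, or were listed hepatocyte or neutrophil markers. The test was tried on simulated counts. Gene symbols were matched to RefSeq for 23515 of 23608 genes.

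The gene lists, their core genes and the tests were chosen with earlier results of these data known. Genes were named by a rule: the core genes of each list, the called members with the largest folds and no overlap between libraries (6 per list), the 12 largest folds without overlap and the 6 largest strain differences in each direction (both leaving out unnamed gene models), and the genes the study names. Outside it, Cd207, Cxcl14, Cyld, Dusp6, Ebi3, Fth1, Gbp8, Gfra2, Il15, Il16, Irf8, Jund, Notch2, Oas2, Oas3, Per1, Runx1, Spi1, Tfec, Tgfb1, Ticam2, Trf, Tsc22d3, Vsir and the silent granule genes were chosen after their values were seen. Some list members are not reported here.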

Additional observations from a re-analysis of the deposited data

Results flagged for a closer look

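The LPS response was called different between BALB/cJ and C57BL/6J Kupffer cells for 9 genes by the interaction test of edgeR (adjusted p = 0.0404 for each, 2 libraries in each of the 4 groups). With a replicate block none of the 9 was called, and the calls also depended on single libraries, as given above. The log2 difference of BALB/cJ minus C57BL/6J was 2.88 for Mtus1, 2.37 for Lbp and 1.49 for Dock5, and it was -2.60 for Zfp703, -2.34 for Mxra8, -1.94 for Mfhas1, -1.72 for Slc7a7, -1.55 for Ube2l6 and -1.51 for Vat1. Mxra8 had 7.35 and 7.62 TPM with LPS, against 29.6 and 32.0 TPM in controls in BALB/cJ, and at most 2.05 TPM in any C57BL/6J library. Slc7a7 had 152 and 141 TPM with LPS and 230 TPM in each control in BALB/cJ, and 141 and 153 TPM with LPS, against 80.9 and 72.2 TPM in controls in C57BL/6J. The strains had alike levels of Slc7a7 after LPS and unlike levels without it. The cause of these differences was not tested.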

How the results depend on the processing

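The counts of BALB/cJ genes called higher and lower were 1902 and 2015 with filterByExpr only, 1908 and 2186 with no filter, and 783 and 2301 with library totals, against 1237 and 1254. Leaving out 1 library gave 1184 to 1230 higher and 1107 to 1378 lower, and 1809 of the 2491 calls (72.6%) were kept without each library in turn. DESeq2 kept 2436 of the calls. Where 1 library of a group was left, its spread was taken to be that of the other group. In C57BL/6J, leaving out 1 library gave 1104 to 1611 higher and 1066 to 1706 lower, and in cultured macrophages 705 to 783 and 425 to 469.

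The strain difference had 3 genes higher and 6 lower. These were 35 and 44 in 1 fit over all Kupffer libraries, 93 and 107 with DESeq2, 94 and 110 with no filter, 7 and 12 with filterByExpr only, 22 and 12 with library totals, 8 and 10 with upper quartile scaling, and 0 to 120 and 0 to 276 when 1 library was left out. Under a replicate block both were 0.

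The study randomized littermates to LPS or no injection, and replicate numbers are not said to pair them. Deviations of same-numbered libraries had r of -0.001 over genes in BALB/cJ. With 2 libraries per group this cannot exclude pairing. With the replicate block 1231 genes were called higher and 1260 lower.

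List medians that changed sign were those of Kupffer cell identity genes (-0.46 with library totals, -0.21 with upper quartile scaling, -0.05 to 0.12 without 1 library), lineage factors (-0.38, -0.14, and -0.09 to 0.45), oxidative phosphorylation (-0.29 and -0.05), IRF and STAT factors (-0.08 with library totals), chemokine receptors (0.50 with no filter), LXR targets (0.06 with filterByExpr only, 0.02 with no filter) and inflammasome genes (0.27 without LPS replicate 1). Genes that changed sign were Tlr4 (-0.36 with library totals, -0.11 with upper quartile scaling), C1qa (0.04 with filterByExpr only) and Fos (-1.95 to 0.47 without 1 library). With all libraries none of these 3 genes was called, and without LPS replicate 2 Fos was called lower (adjusted p = 0.0316). The causes were not tested. The levels plotted as log2(TPM + 1) were not redrawn with another pseudocount.

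The 5.25 M counts of LPS replicate 2 limit genes of a few TPM.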
